A study of Gallus gallus with 18 samples.

Results

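Livers of day-old broiler chicks were compared by the diet of their fathers, and the comparison covers 9700 of the 23741 genes in the deposited expression table. These are the genes with an FPKM of at least 1 in at least 3 of the 6 chick liver libraries, where FPKM is the number of fragments of a gene divided by the length of its transcript and by the size of the library. The chicks of the folic acid-excess group (FE) were sired by Arbor Acres breeder roosters fed 5 mg folic acid per kg of a corn and soybean meal diet from their first day. The chicks of the folic acid-control group (FCON) were sired by roosters fed 0.25 mg per kg of the same feed. All roosters were inseminated to hens of the same breed, whose feed held folic acid and was not split by treatment, so the fathers' feed is the only labelled difference. Each library is a mixture, in equal parts, of liver RNA from 4 chicks of the same replication, and there are 3 such pools per diet. By the labels 1 rooster of each replication served 16 hens, so chicks of the same replication would share a father, but the labels do not name the father of a pool. The labels state no sex for the chicks.

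Folate carries one-carbon units that are used to make purines and thymidylate and to return homocysteine to methionine, from which S-adenosylmethionine, the methyl donor for DNA, RNA and phosphatidylcholine, is formed. The liver is the main site of fatty acid synthesis in birds. In the first day after hatching it still lives largely on the lipid of the yolk, with fatty acid oxidation and cholesterol storage high and lipogenesis only starting as the chick begins to eat carbohydrate. The series asks whether the fathers' folic acid intake goes with other levels of lipid metabolism, one-carbon and PPAR genes in their offspring. PPARs are nuclear receptors that bind fatty acids and switch on genes of fat oxidation and fat storage.

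The libraries were liver by their most abundant transcripts. APOA2, FTH1, APOA1, APOC3 and PIT54, which encode apolipoproteins, ferritin heavy chain and a haemoglobin-binding plasma protein, led the mean FPKM. Of 24 hepatocyte markers 21 were tested, and transferrin (TF) alone had 17239, 14158 and 6998 CPM in FE pools, against 14296, 13203 and 10393 CPM in FCON pools. CPM is the count scaled to a common library size, per 1000000 counts, after scaling by the trimmed mean of M values (TMM), and values of a group are always in the order of pools 1, 2 and 3. The libraries held 31995899, 41014961 and 21307537 counts in FE pools and 25478864, 21617638 and 24615937 counts in FCON pools. Nuclear rRNA took 13.96, 4.70 and 20.4% of the counts in FE pools and 16.4, 27.9 and 29.1% in FCON pools, averaging 13.02 ± 7.89% in FE and 24.5 ± 7.01% in FCON (SD, n = 3 each; exact two-sided permutation test, p = 0.2, where 0.1 is the smallest this design allows). The TMM factors, by which library sizes were multiplied, were 1.06, 1.36 and 1.06 in FE pools and 0.989, 0.803 and 0.822 in FCON pools, so the FE pools lay above all FCON pools (exact two-sided permutation test, p = 0.1), and a gene with equal counts per library size in both diets has a lower CPM in FE. Transcripts of the female-specific W chromosome were plentiful in both pools numbered 2, with 1299 CPM in FE pool 2 and 963 CPM in FCON pool 2 (Wilson 95% intervals 1288 to 1310 and 950 to 976, counting error only), and were at most 9.34 CPM in the other 4. FCON pool 3 stood apart: its Pearson correlations with the other 5 libraries, across genes, ran between 0.871 and 0.909, and the highest between other pools was 0.929.

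No gene differed between the diets past the threshold. With edgeR's quasi-likelihood test on the deposited counts and Benjamini-Hochberg adjustment over the 9700 genes, 0 genes (0%) had an adjusted p below 0.05, and the smallest adjusted p was 0.270. At an unadjusted p below 0.05 there were 679 genes (7%), of which 397 (4.09%) had higher estimates in FE and 282 (2.91%) lower ones. All 3 FE pools lay above all 3 FCON pools in 727 genes (7.49%) and below them in 639 (6.59%). DESeq2's Wald test, whose variance estimate differs, called 38 genes on the same counts, 17 higher in FE and 21 lower. Differences are log2 values of FE minus FCON, so 1 means a doubling. Of the tested genes 4789 genes (49.4%) had a positive difference and 4911 (50.6%) a negative one, with a median of -0.0067. A gene that missed the threshold is not thereby shown to be alike in the 2 diets. The 95% interval of the difference lay within a 2-fold change either way for 2591 genes (26.7%), and the median distance from the estimate to the end of its interval was 0.87 on the log2 scale. Pools within a diet differed with a median SD of 0.43 on the log2(CPM + 1) scale. Because each library is a mixture of cells, fewer cells of a type and less RNA per cell cannot be told apart in any value below.

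Among genes with a symbol and a group mean of at least 2 FPKM, those with the smallest p and higher estimates in FE were SMYD5, SCAF11, INSIG1, MKI67, ERI2, KNTC1, TMEM259, HMMR, RHOA and IQGAP2. SMYD5, a SET and MYND domain methyltransferase (chromosome 4, 89706416 to 89714666 in the deposited table, whose genome build is not given in the sources used here), had 16.9, 16.8 and 20.4 CPM in FE pools, against 3.37, 2.19 and 2.82 CPM in FCON pools. Its groups were far apart relative to the spread within them (log2 difference 2.69, SE 0.36, 95% interval 1.88 to 3.49, edgeR adjusted p = 0.270). SCAF11, a splicing-related factor with an arginine-serine-rich domain (chromosome 1, 30985382 to 31026937), had 54.95, 56.95 and 51.7 CPM in FE pools, against 18.3, 18.3 and 18.4 CPM in FCON pools, with hardly any spread within FCON (log2 difference 1.57, SE 0.26, 95% interval 0.98 to 2.16, edgeR adjusted p = 0.441). RHOA, a small GTPase of the actin cytoskeleton, had 504.01, 419 and 405 CPM in FE pools, against 106, 122 and 231 CPM in FCON pools. In FCON it was highest in pool 3, yet that value was still below every FE pool. IQGAP2, a scaffold protein of liver cells, had 60.7, 58.5 and 83.03 CPM in FE pools, against 33.5, 28.2 and 19.8 CPM in FCON pools. TMEM259, an endoplasmic reticulum membrane protein, had 37.03, 51.3 and 35.1 CPM in FE pools, against 13.8, 12.1 and 5.59 CPM in FCON pools. ERI2, a low transcript, had 8.58, 8.19 and 7.68 CPM in FE pools, against 2.18, 0.922 and 0.939 CPM in FCON pools. The groups did not overlap for any of these genes, which is likely after picking by p. Of all tested genes 7.49% had all FE pools above all FCON pools.

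The genes with the smallest p and lower estimates in FE were GBP4L, ANKS1A, GLRX, NANS, NAT8, MCU, NUDCD1, CHDH, MCRIP1 and ANKRD39. Again the groups did not overlap, as is likely after picking by p (6.59% of all tested genes had all FE pools below all FCON pools). GBP4L, a guanylate-binding protein of the interferon-induced GTPase family (chromosome 12, 2699697 to 2704321), had 28.7, 37.3 and 28.6 CPM in FE pools, against 81.3, 95.3 and 92.4 CPM in FCON pools (log2 difference -1.51, SE 0.27, 95% interval -2.11 to -0.90, edgeR adjusted p = 0.462). MCU, the pore of the mitochondrial calcium uniporter, had 4.200, 4.22 and 3.24 CPM in FE pools, against 16.1, 8.41 and 19.7 CPM in FCON pools. NAT8, an acetyltransferase that completes mercapturic acids from glutathione conjugates, had 7.31, 11.8 and 19.004 CPM in FE pools, against 53.99, 40.1 and 41.5 CPM in FCON pools, and FE pool 3 was the nearest to the FCON pools. NANS, an enzyme of sialic acid synthesis, had 11.1, 11.02 and 6.44 CPM in FE pools, against 21.2, 41.4 and 36.6 CPM in FCON pools. ANKS1A, an adaptor protein, had 2.73, 5.69 and 7.24 CPM in FE pools, against 24.2, 31.99 and 22.4 CPM in FCON pools. ANKRD39 held 54.6, 42.5 and 50.9 CPM in FE pools and 101, 104 and 102 CPM in FCON pools, a close agreement within each diet. Of the 20 genes named in this and the previous group, 17 were among the calls of DESeq2. The 20 were picked by edgeR's p, and DESeq2 and the next fit reuse the same counts, so these overlaps are not separate support. edgeR with the 12 liver libraries of chicks and roosters sharing 1 estimate of spread called 14 genes, and 13 of these were also DESeq2 calls. Of the 13, 11 have a symbol, namely SMYD5, SCAF11, INSIG1, RHOA, TMEM259, ERI2, GBP4L, NANS, NAT8, ANKS1A and TEKT2. TEKT2 lies outside the naming rule and was chosen after its values were seen. It had 0, 0.626 and 0.710 CPM in FE pools, against 9.09, 10.7 and 12.01 CPM in FCON pools. With such low FE values it may have passed the expression minimum through the FCON pools alone.

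**Figure D1:**
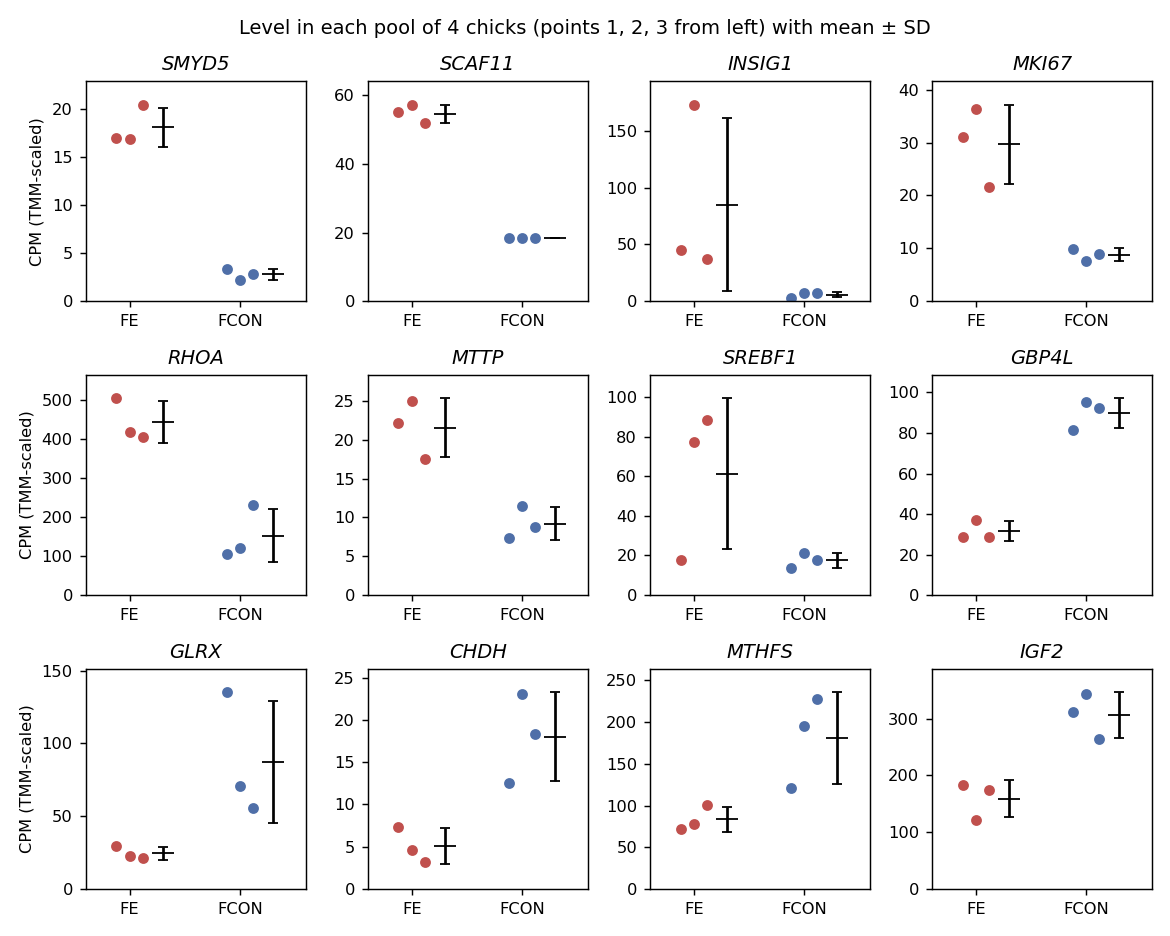
Level of 12 genes in each pool of 4 chicks, in TMM-scaled CPM on a linear axis from 0, with FE pools in red on the left and FCON pools in blue on the right; the bar beside each group is the mean ± SD of 3 pools. SCAF11 lies between 51.7 and 57.0 in FE and near 18.3 in FCON, while the FE pools of INSIG1 and SREBF1 are spread widely.

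Genes that make fatty acids were measured with differences in both directions. Of 26 tested members 16 had positive and 10 negative differences, with a median of 0.22 against -0.0067 over all tested genes. With an unadjusted p below 0.05, 3 were higher and 1 lower in FE (4.09% and 2.91% of all tested genes), 0 were called, and 0 had non-overlapping groups (7.49% of all genes with FE above and 6.59% below). SREBF1, the transcription factor that drives the lipogenic enzymes, had 17.7, 77.3 and 88.6 CPM in FE pools, against 13.7, 21.2 and 17.7 CPM in FCON pools; FE pools 2 and 3 were high, and FE pool 1 lay among the FCON pools (log2 difference 1.80, SE 0.54, 95% interval 0.59 to 3.02, edgeR adjusted p = 0.701). The step from acetyl-CoA to palmitate runs through ACLY, ACACA and FASN. ACLY, which supplies cytosolic acetyl-CoA, had 159, 175 and 101 CPM in FE pools, against 109.9, 113 and 221 CPM in FCON pools. ACACA, the acetyl-CoA carboxylase that commits carbon to the pathway, had 53.1, 64.5 and 125 CPM in FE pools, against 15.04, 97.3 and 51.6 CPM in FCON pools, with FCON pool 1 the lowest and FE pool 3 the highest. FASN, the fatty acid synthase, had 397, 339 and 172 CPM in FE pools, against 131, 192 and 264 CPM in FCON pools, with FE pools 1 and 2 above every FCON pool and FE pool 3 among them (95% interval -0.25 to 1.51).

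Desaturation and elongation gave the widest range. FADS2, the delta-6 desaturase of polyunsaturated fatty acids, had 10.9, 4.01 and 49.5 CPM in FE pools, against 2.06, 3.29 and 9.54 CPM in FCON pools, and its estimate of 2.11 came to 0.59 without FE pool 3. ELOVL5, which elongates polyunsaturated fatty acids, had 262, 208 and 124 CPM in FE pools, against 74.8, 135 and 95.6 CPM in FCON pools, with FE pool 3 below FCON pool 2. ELOVL6, which elongates palmitate, had 10.8, 22.3 and 14.5 CPM in FE pools, against 17.7, 16.5 and 5.83 CPM in FCON pools, and ELOVL2 ranged more within each diet than between them, with 6.11, 18.6 and 16.03 CPM in FE pools, against 2.62, 24.9 and 3.61 CPM in FCON pools. THRSP, a nuclear protein that rises with lipogenesis in birds and mammals, went the other way with 3.38, 2.07 and 20.6 CPM in FE pools, against 11.2, 58.4 and 33.8 CPM in FCON pools, though FE pool 3 lay above FCON pool 1. MLXIPL, the carbohydrate-response factor, had 75.9, 68.8 and 192 CPM in FE pools, against 93.6, 171 and 74.2 CPM in FCON pools, a difference of -0.0089 whose 95% interval of -1.07 to 1.05 leaves a change of about 2-fold either way possible. ME1, malic enzyme, a source of NADPH, had 3.91, 15.7 and 11.9 CPM in FE pools, against 17.2, 17.4 and 15.2 CPM in FCON pools. SCD, the stearoyl-CoA desaturase, was listed at 0 counts in all 6 pools and was not tested. Without FCON pool 3 the list median was 0.1, and without FCON pool 2 it was 0.42.

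Lipid droplet and lipolysis genes mostly had positive differences, and FCON pool 3 was the lowest pool for both lists. Of 16 tested triglyceride and droplet genes 12 were positive (median 0.27) and of 15 lipolysis genes 11 (median 0.30). At an unadjusted p below 0.05 there were 1 and 0, against 7% of all tested genes. The median deviation of the lipolysis list from the mean of the 6 pools was 0.22, 0.20 and 0.057 in FE pools and 0.15, 0.053 and -0.86 in FCON pools, so FCON pool 3 alone was low. Without that pool the lipolysis median was 0.10 and 9 of 15 were positive. LPIN1, the phosphatidate phosphatase lipin 1, had 13.2, 101 and 6.66 CPM in FE pools, against 8.46, 9.05 and 9.04 CPM in FCON pools; a single pool, FE 2, was high, and without it the difference was 0.17. PLIN4, a droplet coat protein, had 297, 179.6 and 173 CPM in FE pools, against 184, 86.6 and 105 CPM in FCON pools. PLIN2, the main droplet coat protein of liver, had 52.4, 42.4 and 47.2 CPM in FE pools, against 49.2, 5.303 and 58.4 CPM in FCON pools, with FCON pool 2 far below the other 5. GPAM, which starts glycerolipid synthesis, had 55.9, 39.6 and 89.6 CPM in FE pools, against 71.4, 75.7 and 41.1 CPM in FCON pools (95% interval -0.88 to 0.83). PNPLA2, the adipose triglyceride lipase, had 49.8, 21.7 and 35.4 CPM in FE pools, against 35.2, 47.3 and 73.8 CPM in FCON pools, and LPL, lipoprotein lipase, had 74.6, 59.7 and 88.98 CPM in FE pools, against 99.8, 37.002 and 12.999 CPM in FCON pools. MGLL, monoglyceride lipase, had 144, 125 and 126 CPM in FE pools, against 130.3, 186 and 271 CPM in FCON pools. DGAT2 was below the expression minimum, with FPKM between 0 and 0.86, and was not tested.

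Fatty acid oxidation genes leaned to lower estimates in FE. Of 33 tested members 24 had negative differences (median -0.23), 3 lower and 1 higher in FE at an unadjusted p below 0.05, against 2.91% and 4.09% of all tested genes, and 0 were called. HADHA, the alpha subunit of the mitochondrial trifunctional protein, had 293, 330.3 and 334 CPM in FE pools, against 469, 481 and 597 CPM in FCON pools (log2 difference -0.69, SE 0.26, 95% interval -1.28 to -0.10, edgeR adjusted p = 0.701). EHHADH, the peroxisomal bifunctional enzyme, had 201, 204 and 276 CPM in FE pools, against 297, 428 and 476 CPM in FCON pools. PHYH, which starts the alpha-oxidation of branched fatty acids, had 104, 59.2 and 104 CPM in FE pools, against 128, 168 and 178 CPM in FCON pools. In these 3 genes every FE pool was below every FCON pool. Of the 33 members, 6 had all FE pools below all FCON pools and 1 had them above (6.59% and 7.49% of all genes). SLC22A5, the carnitine importer, went the other way with 44.9, 62.7 and 57.5 CPM in FE pools, against 38.5, 37.8 and 24.1 CPM in FCON pools. CPT1A, the carnitine palmitoyltransferase that gates entry into mitochondria, had 139, 142 and 115 CPM in FE pools, against 255, 91.3 and 56.05 CPM in FCON pools. Its highest value was in FCON pool 1 and its lowest in FCON pool 3. ACADL, a long-chain acyl-CoA dehydrogenase, had 488, 425 and 386 CPM in FE pools, against 461, 635 and 898 CPM in FCON pools, with FCON pools 2 and 3 above every FE pool.

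FCON pool 3 was the highest pool for this list, whose median deviation was 0.024, -0.22 and -0.068 in FE pools and -0.13, 0.11 and 0.30 in FCON pools. Without FCON pool 3 the median difference was -0.043, with 15 positive and 18 negative. On the FPKM scale, where the median of all tested genes shifts by 0.34, the list median was 0.23, below that shift but of the opposite sign. Ketone body and fasting genes had 6 positive and 7 negative differences. PPARGC1B, a coactivator of mitochondrial genes, had 15.6, 21.6 and 23.6 CPM in FE pools, against 11.6, 11.9 and 10.9 CPM in FCON pools, with no overlap, and FOXO1, a transcription factor of the fasted state, had 10.3, 11.3 and 11.2 CPM in FE pools, against 13.1, 18.8 and 17.002 CPM in FCON pools.

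PPAR targets and fatty acid carriers showed no common direction, with 20 positive and 23 negative of 43 tested and a median of -0.0063. Both directions held 3 genes with an unadjusted p below 0.05 (4.09% of all tested genes were higher and 2.91% lower). CD36, the fatty acid translocase, had 88.96, 153 and 80.5 CPM in FE pools, against 36.6, 68.3 and 42.2 CPM in FCON pools, without overlap (log2 difference 1.14, SE 0.37, 95% interval 0.31 to 1.96, edgeR adjusted p = 0.701). PPARA itself had 26.5, 11 and 44.4 CPM in FE pools, against 52.4, 14.8 and 67.6 CPM in FCON pools, and the spread within each diet was wider than the difference. PPARG was below the expression minimum, with FPKM of 0.41, 0.55 and 0.21 in FE pools and 0.15, 0.24 and 0.31 in FCON pools. FABP1, the liver fatty acid-binding protein, had 1912, 1581 and 1429.7 CPM in FE pools, against 2381, 1555 and 1276 CPM in FCON pools, and its 95% interval of -0.82 to 0.66 lay within a 2-fold change either way. LBFABP, the basic fatty acid-binding protein of bird liver, had 2377, 1932 and 2548 CPM in FE pools, against 703, 2968 and 2480.2 CPM in FCON pools, where FCON pool 1 alone was low. SCP2, a peroxisomal sterol carrier and thiolase, had 339.6, 278 and 338 CPM in FE pools, against 376, 514 and 631 CPM in FCON pools.

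The cholesterol synthesis list had a higher median deviation from the 6-pool mean in each FE pool than in any FCON pool, while its summed CPM did not separate the diets. The median deviation was 0.21, 0.19 and 0.27 in FE pools and -0.21, -0.13 and -0.29 in FCON pools. Summed CPM was 1188, 1212 and 868 in FE pools and 774, 788 and 1551 in FCON pools, so FCON pool 3 was the highest of all, and 3 of the 25 tested members had all FE pools above all FCON pools (7.49% of all genes). Of 25 tested members 17 had positive differences (median 0.22, 0.34 without FCON pool 3). At an unadjusted p below 0.05 there were 2, both higher in FE (8%, against 4.09% of all tested genes), and 0 were called. The first was INSIG1 (chromosome 2, 7910231 to 7918978), an endoplasmic reticulum protein that retains the SREBP precursors when sterol is high and whose own gene is an SREBP target. INSIG1 had 45.6, 173 and 36.8 CPM in FE pools, against 3.29, 7.32 and 7.17 CPM in FCON pools. FE pool 2 was highest by a wide margin, and even the lowest FE pool was well above the highest FCON pool (log2 difference 3.85, SE 0.66, 95% interval 2.35 to 5.34, edgeR adjusted p = 0.462; 2.80 without FE pool 2). INSIG2, its relative, had 109.6, 129 and 71.3 CPM in FE pools, against 50.9, 46.3 and 73.6 CPM in FCON pools. SREBF2, the sterol-responsive transcription factor, had 36.3, 39.1 and 76.7 CPM in FE pools, against 44.7, 69.5 and 51.01 CPM in FCON pools (95% interval -0.94 to 0.70). SQLE, squalene epoxidase, was below the expression minimum, with counts of 12, 56 and 29 in FE pools and 19, 0 and 4 in FCON pools.

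Bile acid genes were split evenly, with 12 positive and 12 negative of 24 tested (median 0.022). CYP7A1, the rate-limiting enzyme of bile acid synthesis, had 18.8, 10.4 and 16.5 CPM in FE pools, against 10.04, 4.03 and 4.45 CPM in FCON pools, with every FE pool above every FCON pool (log2 difference 1.30, SE 0.46, 95% interval 0.27 to 2.32, edgeR adjusted p = 0.701). KLB, the FGF19 co-receptor through which CYP7A1 is repressed in mammals, had 21.3, 14.6 and 27.8 CPM in FE pools, against 16.6, 7.67 and 5.68 CPM in FCON pools. AKR1D1, the reductase that sets the ring junction of bile acids, had 13.6, 113 and 84.8 CPM in FE pools, against 557, 83.5 and 199 CPM in FCON pools, with FE pool 1 and FCON pool 1 at the ends of the range.

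Lipoprotein genes had 10 positive and 7 negative differences of 17 tested, with a median of 0.29 and 0.11 without FCON pool 3. MTTP, the transfer protein that loads lipid onto apolipoprotein B, had 22.1, 24.99 and 17.5 CPM in FE pools, against 7.34, 11.5 and 8.75 CPM in FCON pools, with no overlap (log2 difference 1.23, SE 0.33, 95% interval 0.49 to 1.97, edgeR adjusted p = 0.701). The apolipoproteins themselves did not follow it. APOA1, the main protein of high-density lipoprotein, had 15691, 14386 and 12180.0 CPM in FE pools, against 23487, 16009 and 6712 CPM in FCON pools, with its highest and its lowest value both in FCON. APOA2, its smaller companion, had 13222, 9244 and 11840.0 CPM in FE pools, against 18868, 15543 and 9965 CPM in FCON pools. APOC3, an inhibitor of triglyceride clearance, had 6746, 5163 and 6928 CPM in FE pools, against 10037, 11985 and 4751 CPM in FCON pools, and for each of these 3 the lowest FCON value was that of pool 3. APOA4, which is made in liver and intestine of birds, had 1015, 859 and 1003 CPM in FE pools, against 6542, 1271 and 988 CPM in FCON pools, and its difference of -1.61 came to -0.23 without FCON pool 1.

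Folate and one-carbon genes leaned to lower estimates in FE, and again FCON pool 3 was the highest. Of 46 tested members 37 had negative and 9 positive differences (median -0.21). Members with an unadjusted p below 0.05 were 2 lower (CHDH and MTHFS) and 1 higher (MTR), against 2.91% and 4.09% of all tested genes. All FE pools lay below all FCON pools in 6 members and above them in 1 (6.59% and 7.49% of all genes), and 0 were called. The list's median deviation was 0.17, -0.21 and -0.20 in FE pools and -0.20, 0.18 and 0.48 in FCON pools. Without FCON pool 3 the median was -0.0078, with 22 positive and 24 negative; on the FPKM scale it was 0.21, below the shift of 0.34 of all genes.

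CHDH, the mitochondrial choline dehydrogenase that starts the route from choline to betaine (chromosome 12, 7606554 to 7631623), had 7.34, 4.61 and 3.197 CPM in FE pools, against 12.6, 23.1 and 18.3 CPM in FCON pools. It was low in all FE pools (log2 difference -1.83, SE 0.42, 95% interval -2.78 to -0.87, edgeR adjusted p = 0.675), and without FCON pool 3 its difference was -1.82. MTHFS, which returns 5-formyltetrahydrofolate to the active folate pool (chromosome 10, 13083155 to 13108247), had 71.6, 77.4 and 101 CPM in FE pools, against 121, 195 and 228 CPM in FCON pools, also without overlap (log2 difference -1.12, SE 0.32, 95% interval -1.84 to -0.40, edgeR adjusted p = 0.701). MTR, the cobalamin-dependent methionine synthase that uses 5-methyltetrahydrofolate, had 15.5, 32.2 and 26.02 CPM in FE pools, against 9.84, 15.2 and 15.3 CPM in FCON pools. Its lowest FE pool and its highest FCON pools were nearly level, and the 95% interval was 0.038 to 1.70. BHMT, which remethylates homocysteine with betaine, had 2358, 859 and 992 CPM in FE pools, against 977, 1563 and 1929.7 CPM in FCON pools. SHMT1, the cytosolic serine hydroxymethyltransferase, had 3094, 1736 and 953 CPM in FE pools, against 743, 1379.8 and 2510.4 CPM in FCON pools, a wider range within each diet than between them. MAT1A, which makes S-adenosylmethionine in liver, had 1006, 621 and 406 CPM in FE pools, against 438, 802 and 713 CPM in FCON pools. GNMT, the glycine methyltransferase that disposes of excess methyl groups, had 1437, 985 and 1631 CPM in FE pools, against 1492, 2101 and 1365 CPM in FCON pools. AHCY, which clears S-adenosylhomocysteine, had 823, 590.1 and 762 CPM in FE pools, against 948, 1086 and 1230.1 CPM in FCON pools, with FE below FCON throughout (log2 difference -0.59, SE 0.28, 95% interval -1.22 to 0.048). FTCD, the enzyme that passes histidine carbon to folate, had 308, 127 and 241 CPM in FE pools, against 193, 250.4 and 299 CPM in FCON pools, with a 95% interval of -0.96 to 0.68 on the log2 scale.

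DNA and RNA methylation genes had 18 positive and 10 negative differences of 28 tested (median 0.15). DNMT1, the maintenance DNA methyltransferase, had 18.4, 27.9 and 33.4 CPM in FE pools, against 15.04, 15.1 and 12.9 CPM in FCON pools, without overlap (log2 difference 0.89, SE 0.32, 95% interval 0.16 to 1.62, edgeR adjusted p = 0.701). MBD3, a methyl-CpG-binding domain protein of the NuRD complex, had 6.75, 4.31 and 5.77 CPM in FE pools, against 28.5, 22.02 and 8.11 CPM in FCON pools, the lowest FCON value being that of pool 3. DNMT3A, a de novo methyltransferase, had 156, 133 and 242 CPM in FE pools, against 189.6, 188 and 112 CPM in FCON pools (95% interval -0.65 to 0.89). N6AMT1, which has been put forward as a writer of 6-methyladenine in DNA, had 26.9, 23.9 and 8.75 CPM in FE pools, against 23.9, 10.95 and 18.4 CPM in FCON pools. ALKBH1, put forward as its eraser, had 6.75, 12.02 and 10.7 CPM in FE pools, against 8.65, 9.97 and 8.01 CPM in FCON pools, and the groups overlapped for both. METTL4, another candidate writer, was below the expression minimum, with counts of 56, 68 and 69 in FE pools and 21, 20 and 0 in FCON pools.

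Of a panel of 44 genes chosen for lipid metabolism, folate use and DNA methylation, 37 were tested, 19 with positive and 18 with negative differences. None was called (edgeR adjusted p from 0.462 to 0.997). Of the 37, 8 had an unadjusted p below 0.05, against 7% of all tested genes. Genes were chosen with earlier results of these data known, so this count is no test of the panel. The interval of 9 lay within a 2-fold change either way, against 26.7% of all tested genes.

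**Figure D2:**
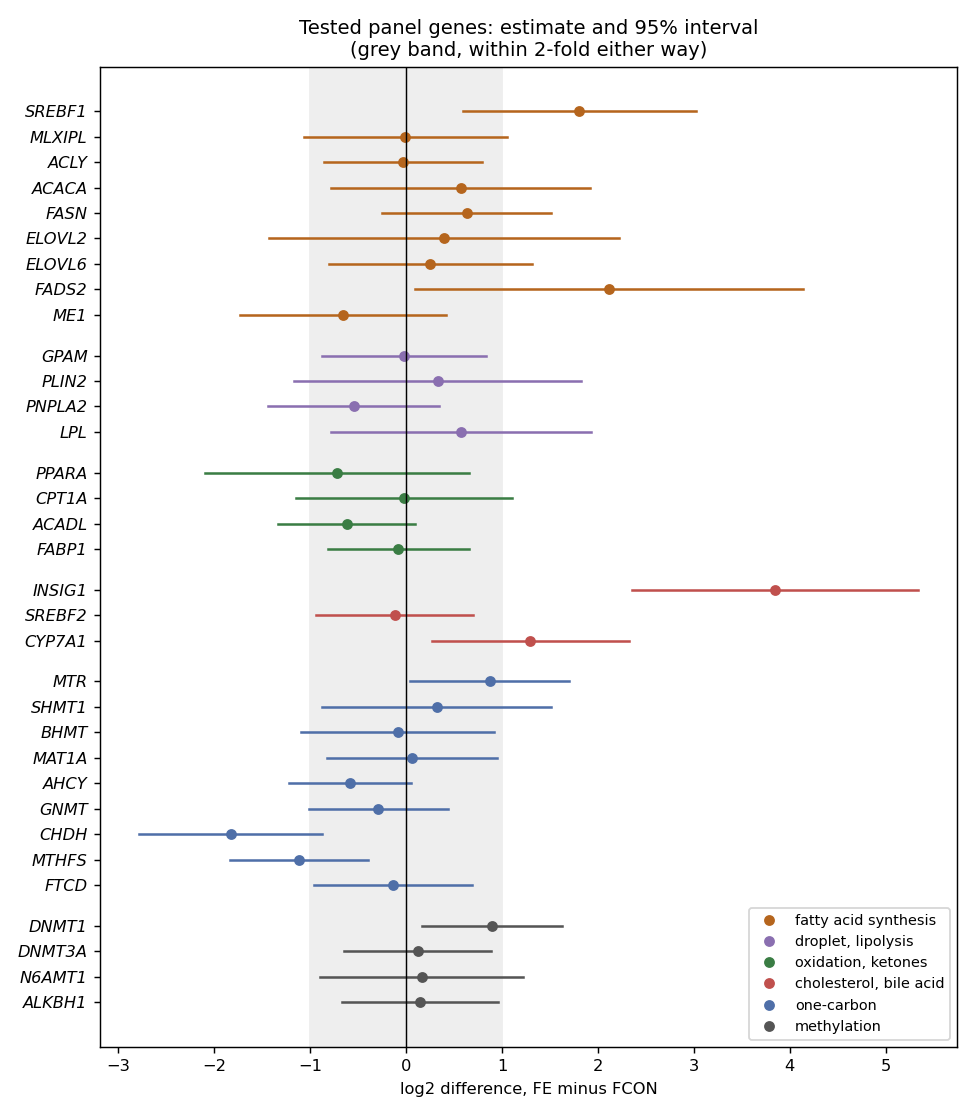
Log2 difference (FE minus FCON) of 33 of the 37 tested panel genes, grouped by role, with points for the estimate and lines for the 95% interval from edgeR; the grey band marks a 2-fold change either way. The intervals of INSIG1, SREBF1, FADS2, CYP7A1, MTR, DNMT1, CHDH and MTHFS leave out 0 before adjustment, and most of the others cross it and extend past the band.

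Of the 22 pathway lists with tested members, cell cycle genes had the largest median difference, 0.65, with 61 of 67 tested members positive. At an unadjusted p below 0.05 there were 25 higher in FE and 0 lower (37.3%, against 4.09% of all tested genes for higher), 22 had all FE pools above all FCON pools (7.49% of all genes), and 0 were called. MKI67, the proliferation antigen, had 31.01, 36.4 and 21.5 CPM in FE pools, against 9.96, 7.61 and 8.85 CPM in FCON pools (log2 difference 1.75, SE 0.33, 95% interval 1.01 to 2.49, edgeR adjusted p = 0.466). HMMR, a spindle-associated hyaluronan receptor, had 14.6, 20.1 and 12.1 CPM in FE pools, against 3.77, 5.94 and 4.25 CPM in FCON pools. KNTC1, a kinetochore protein of the spindle checkpoint that is not in the list, had 26.3, 30.3 and 26.7 CPM in FE pools, against 7.62, 5.76 and 11.6 CPM in FCON pools. CENPE, a kinetochore motor, had 12.5, 18.6 and 9.64 CPM in FE pools, against 4.49, 5.13 and 4.498 CPM in FCON pools. PRC1, which bundles the central spindle, had 33.3, 54.9 and 39.96 CPM in FE pools, against 16.2, 20.6 and 18.98 CPM in FCON pools. TOP2A, the topoisomerase that unlinks replicated DNA, had 52.3, 98.2 and 60.4 CPM in FE pools, against 29.3, 14.8 and 47.8 CPM in FCON pools, so that FCON pool 3 came close to the FE pools.

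The pools of a diet did not agree for this list. Its median deviation was 0.59, 0.65 and -0.06 in FE pools and -0.28, -0.78 and 0.13 in FCON pools: FE pools 1 and 2 were high, FCON pool 2 was low, and FE pool 3 lay below FCON pool 3. The summed CPM of the list gave the same picture, with 2233, 2305 and 1412 in FE pools and 1343, 893 and 1727 in FCON pools. Without both pools numbered 2, which hold the W transcripts, the median was 0.26 and 4 members had an unadjusted p below 0.05. Leaving out 1 library changed the count of 25 at that p to 10 without FE pool 1, 9 without FE pool 2, 16 without FCON pool 1 and 9 without FCON pool 2, and to 27 and 29 without FE pool 3 and FCON pool 3. The median was 0.41 without FCON pool 2 and 0.99 without FCON pool 3. SMC4, a condensin subunit, had 25.2, 39.9 and 16.7 CPM in FE pools, against 11.99, 9.91 and 9.64 CPM in FCON pools, and the groups did not overlap. KIF11, a mitotic motor, had 11.5, 13.3 and 7.28 CPM in FE pools, against 3.49, 2.25 and 5.54 CPM in FCON pools, again without overlap.

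Cytosolic ribosomal protein genes were lower in FE by their estimates in 71 of 71 tested members, with a median of -0.40. Members with an unadjusted p below 0.05 numbered 7, all lower (9.86%, against 2.91% of all tested genes), 26 had all FE pools below all FCON pools (6.59% of all genes), 18 had an interval within a 2-fold change either way, and 0 were called. The count of 7 moved with single libraries, to 3, 0 and 2 without FE pools 1, 2 and 3, 1, 0 and 12 without FCON pools 1, 2 and 3, and 0 with the replicate block. RPS28 had 576, 487 and 626 CPM in FE pools, against 839, 1335 and 906 CPM in FCON pools, and RPL23A had 519.99, 579.7 and 616 CPM in FE pools, against 985, 928 and 833 CPM in FCON pools. Both encode structural proteins of the ribosome, and in both the groups did not overlap. The list's median deviation was -0.18, -0.40 and -0.013 in FE pools and 0.25, 0.39 and -0.034 in FCON pools, so FE pool 3 and FCON pool 3 were level. Summed CPM was 64549, 51317 and 68536 in FE pools and 83641, 92936 and 74743 in FCON pools. The nuclear rRNA share of the counts, given above, was 13.96, 4.70 and 20.4% in FE pools and 16.4, 27.9 and 29.1% in FCON pools. With rRNA genes removed before scaling, 71 of 71 members were negative, with a median of -0.39. In that fit 5 members were lower at an unadjusted p below 0.05, against 2.67% of all its genes. That fit drops the rRNA genes and rescales each library, so it can hardly move the other genes relative to one another. The part of rRNA in this result was not tested. On the FPKM scale the list median was -0.00056 while all genes shifted by 0.34. The members were thus lower relative to other genes on that scale too, but FPKM rests on the same alignments and is not separate support. How reads that match several genes were counted is not given in the sources used here.

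Nuclear genes of oxidative phosphorylation had 62 negative and 9 positive differences of 71 tested, with a median of -0.21. The interval of 51 of 71 lay within a 2-fold change either way (26.7% of all genes). NDUFB7, a subunit of complex I, had 199, 186 and 313 CPM in FE pools, against 359, 575 and 286 CPM in FCON pools. NDUFB2, another complex I subunit, had 408, 346 and 431 CPM in FE pools, against 637, 793 and 511 CPM in FCON pools. In all, 2 members had an unadjusted p below 0.05, both lower in FE (2.82%, against 2.91% of all tested genes).

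Differences followed transcript length. A length for each gene was taken from the ratio of its count to its FPKM, and the tested genes were divided into 10 equal groups. The median difference was -0.23 in the shortest decile (lengths of 56 to 1053 bases) and 0.17 in the longest (7466 bases or more). At an unadjusted p below 0.05, 5.26% of the shortest decile were lower and 0.722% higher in FE, and of the longest 2.27% were lower and 9.48% higher. In the shortest decile the median deviations were 0.0068, -0.18 and -0.068 in FE pools and 0.14, 0.13 and 0.029 in FCON pools. In the longest they were -0.011, 0.13 and 0.26 in FE pools and -0.098, -0.018 and -0.078 in FCON pools, so FE pools 2 and 3 were higher there than in the shortest decile, all 3 FCON pools were lower and FE pool 1 was nearly level. The difference between the longest and the shortest decile was 0.40, and it lay between 0.33 and 0.53 when each library was left out in turn. It was 0.20 with limma on log2(FPKM + 1) and 0.35 on log2(FPKM + 0.1).

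Ribosomal protein and oxidative phosphorylation transcripts are short, with 62 and 45 of the 71 members of each list in the shortest decile. After the median of each gene's own decile was subtracted, the median of oxidative phosphorylation was -0.012, with 33 positive and 38 negative. That of ribosomal protein genes was -0.17, with 7 positive and 64 negative. Cell cycle genes had a median of 0.73, one-carbon genes -0.22, fatty acid oxidation genes -0.19 and cholesterol synthesis genes 0.27. The part of RNA integrity in the trend was not tested; the labels give only that integrity numbers exceeded 7.

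**Figure D3:**
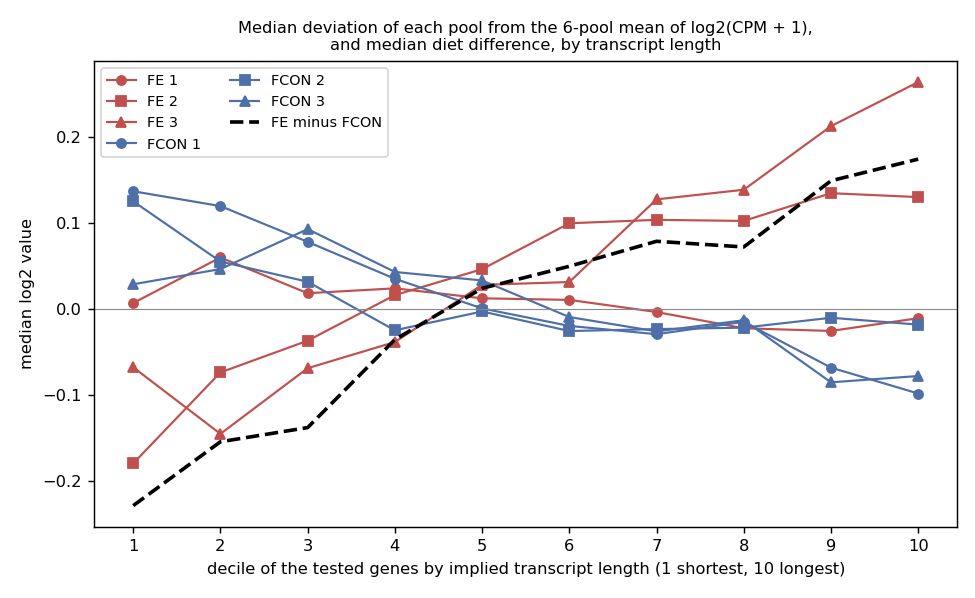
Median over genes of each pool's deviation from the 6-pool mean of log2(CPM + 1), by decile of implied transcript length, for FE pools (red) and FCON pools (blue), and the median FE minus FCON difference (dashed), all on the log2 scale. The dashed line runs from -0.23 in the shortest decile to 0.17 in the longest, and FE pools 2 and 3 slope upward while FCON pools slope downward.

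Glucose metabolism genes had 13 positive and 24 negative differences of 37 tested (median -0.21, 0.017 without FCON pool 3). PKM, a pyruvate kinase that is minor in hepatocytes, had 14.5, 19.4 and 28.4 CPM in FE pools, against 38.7, 35.3 and 38.6 CPM in FCON pools, and SLC2A1, a glucose transporter, had 6.73, 8.75 and 10.3 CPM in FE pools, against 5.52, 4.03 and 3.51 CPM in FCON pools. PCK2, the mitochondrial form of the gluconeogenic carboxykinase and the main form in bird liver, had 120, 76.2 and 131 CPM in FE pools, against 109, 158 and 492 CPM in FCON pools, with FCON pool 3 alone high. GAPDH ranged over 9641, 3743 and 4663 CPM in FE pools and 5124, 9260.0 and 9104 CPM in FCON pools.

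The growth factor and thyroid axis showed 10 positive and 13 negative differences of 23 tested. IGF2, the fetal and perinatal insulin-like growth factor (chromosome 5, 13964428 to 13981564), had 182, 121 and 174 CPM in FE pools, against 312, 343 and 263 CPM in FCON pools, with no overlap (log2 difference -0.95, SE 0.28, 95% interval -1.58 to -0.31, edgeR adjusted p = 0.701). DIO1, the deiodinase that activates thyroid hormone in liver, had 95.04, 89.5 and 57.1 CPM in FE pools, against 42.7, 57.3 and 29.3 CPM in FCON pools, where FE pool 3 and FCON pool 2 were level. Circadian clock genes had 11 positive and 8 negative differences of 19, and ARNTL, the core activator of the clock, had 4.26, 20.2 and 7.42 CPM in FE pools, against 2.26, 5.19 and 5.98 CPM in FCON pools.

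Secreted plasma proteins had mostly positive differences, with 35 of 44 tested positive and a median of 0.46 (0.26 without FCON pool 3, with 27 positive). The list's median deviation was 0.43, 0.47 and -0.22 in FE pools and 0.24, 0.053 and -0.83 in FCON pools, and that of 21 hepatocyte markers, 14 of which are also in the plasma protein list, was 0.39, 0.39 and -0.35 in FE pools and 0.22, 0.14 and -0.81 in FCON pools. CP, the copper-carrying ferroxidase ceruloplasmin, had 49.3, 26.3 and 28.6 CPM in FE pools, against 9.53, 15.1 and 5.19 CPM in FCON pools, without overlap (log2 difference 1.81, SE 0.45, 95% interval 0.79 to 2.82, edgeR adjusted p = 0.696). F10, coagulation factor X, had 82.4, 82.4 and 55.5 CPM in FE pools, against 41.5, 54.9 and 38.8 CPM in FCON pools. KNG1, kininogen, had 898, 956 and 496 CPM in FE pools, against 368, 619 and 274 CPM in FCON pools. PIT54, a scavenger of free haemoglobin in birds, had 21841, 17754 and 5972 CPM in FE pools, against 9842, 6303 and 5572 CPM in FCON pools, so FE pool 3 was level with the FCON pools.

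Unfolded protein response genes had 18 positive and 9 negative differences of 27 tested (median 0.41, 0.20 without FCON pool 3), and FE pool 2 was the highest, with deviations of 0.15, 0.55 and -0.15 in FE pools and 0.012, 0.051 and -0.75 in FCON pools. ERN1, the stress sensor IRE1, had 26.4, 43.2 and 53.2 CPM in FE pools, against 13.5, 27.03 and 11.02 CPM in FCON pools. PDIA6, a disulfide isomerase, had 158, 311 and 74.4 CPM in FE pools, against 86.4, 82.6 and 46.5 CPM in FCON pools. CRELD2, a secretory stress marker, had 48.6, 85.7 and 22.9 CPM in FE pools, against 24.9, 25.1 and 11.9 CPM in FCON pools. Both were highest in FE pool 2, as were HSP90B1, the chaperone of the endoplasmic reticulum, at 397, 1082 and 324 CPM in FE pools, against 297, 383 and 138 CPM in FCON pools, and INSIG1 and LPIN1 above. Cytosolic heat shock genes had 13 positive and 21 negative differences of 34 tested, with 0 at an unadjusted p below 0.05. DNAJB1, a co-chaperone of HSP70, had 12.8, 13.95 and 13.5 CPM in FE pools, against 18.6, 16.5 and 34.3 CPM in FCON pools.

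Antioxidant and glutathione genes had 12 positive and 30 negative differences of 42 tested (median -0.19, -0.017 without FCON pool 3). GLRX, glutaredoxin, which reduces glutathionylated proteins, had 29.5, 22.6 and 21.1 CPM in FE pools, against 135, 70.8 and 55.9 CPM in FCON pools (log2 difference -1.84, SE 0.38, 95% interval -2.70 to -0.98, edgeR adjusted p = 0.574). HMOX1, haem oxygenase, had 45.8, 48.1 and 48.7 CPM in FE pools, against 104, 43.2 and 105 CPM in FCON pools, and FCON pool 2 lay below the FE pools. MT4L, a metallothionein that binds zinc and copper, had 212, 1104 and 513 CPM in FE pools, against 4116, 2758 and 606 CPM in FCON pools, with FCON pool 3 among the FE values (log2 difference -2.03, SE 0.74, 95% interval -3.70 to -0.36).

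Interferon-response genes had 9 positive and 22 negative differences of 31 tested (median -0.32, -0.27 without FCON pool 3), with 3 lower and 1 higher at an unadjusted p below 0.05 (2.91% and 4.09% of all tested genes). Beside GBP4L above, IRF9, a subunit of the interferon-activated transcription factor, had 5.76, 4.42 and 12.03 CPM in FE pools, against 19.6, 8.53 and 19.8 CPM in FCON pools, and ZNFX1, an RNA sensor, had 6.05, 14.1 and 9.902 CPM in FE pools, against 25.8, 25.9 and 11.6 CPM in FCON pools. CCL19, a chemokine that guides lymphocytes, went the other way with 7.49, 10.3 and 7.81 CPM in FE pools, against 5.002, 4.32 and 2.87 CPM in FCON pools.

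Markers of other cells varied between pools. Heterophils are the bird counterpart of neutrophils, and of 8 tested heterophil markers 6 were negative (median -1.18) and 4 had an unadjusted p below 0.05, all lower in FE (2.91% of all tested genes), and 0 were called. The count was 2 without FE pool 1, 2 without FE pool 2, 1 without FCON pool 1, 2 without FCON pool 2 and 2 with the replicate block. The 2 positive members reached a log2 difference of up to 1.45. All FE pools lay above all FCON pools in 1 of the 8 and below them in 2 (7.49% and 6.59% of all genes). The summed CPM of the heterophil list was 24.5, 43.3 and 36.7 in FE pools and 78.8, 61.8 and 29.6 in FCON pools. FCON pool 3 thus lay within the FE range. AvBD1, an avian beta-defensin of heterophil granules, had 0.352, 0.376 and 0 CPM in FE pools, against 2.46, 2.07 and 1.58 CPM in FCON pools, listed at 0 in FE pool 3. With such low FE values AvBD1 may have passed the expression minimum through the FCON pools alone. SRGN, the granule proteoglycan serglycin, had 1.82, 7.798 and 6.62 CPM in FE pools, against 26.6, 22.5 and 6.47 CPM in FCON pools, and CSF3R, the receptor of the granulocyte growth factor, had 2.88, 3.34 and 5.86 CPM in FE pools, against 11.5, 11.8 and 4.201 CPM in FCON pools. AvBD6 and MPO were listed at 0 in all pools. Macrophage markers summed to 216, 605 and 327 CPM in FE pools and 646, 409 and 237 CPM in FCON pools. Of 14 tested, 7 were positive and 7 negative (median -0.064). SPI1, a transcription factor of myeloid cells, had 3.17, 7.91 and 8.303 CPM in FE pools, against 12.1, 12.7 and 16.6 CPM in FCON pools. It was the 1 macrophage marker with all FE pools below all FCON pools (6.59% of all genes). Only 4 of 23 lymphocyte markers were tested, and CD8A and CD72 were listed at 0 in all pools.

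Blood and vessel markers split the pools in another way. Erythroid markers summed to 172, 1107 and 474 CPM in FE pools and 1972, 667 and 180.5 CPM in FCON pools, a wider range within each diet than between them, and HBA1, a haemoglobin alpha chain, had 67.6, 387 and 193 CPM in FE pools, against 952, 258 and 62.4 CPM in FCON pools. Endothelial markers summed to 276, 572 and 649 CPM in FE pools and 643, 841 and 351 CPM in FCON pools, and those of stellate cells and fibroblasts to 1029, 1156 and 1029.6 CPM in FE pools and 2399.9, 871 and 972 CPM in FCON pools. Of 16 tested stellate and fibroblast markers 7 were positive and 9 negative. All FE pools lay above all FCON pools in 1 of them and below in 1 (7.49% and 6.59% of all genes). The latter was RGS5, a pericyte marker, with 17.7, 13.99 and 34.5 CPM in FE pools, against 48.99, 37.9 and 55.999 CPM in FCON pools. By median deviation FE pool 1 was low in macrophage, erythroid, thrombocyte and endothelial markers at once (-0.93, -1.05, -0.98 and -0.77). FCON pool 1 was high in all of them (0.79, 0.91, 0.60 and 0.40), though its endothelial sum lay below those of FCON pool 2 and FE pool 3. For erythroid markers FCON pool 3 was lower still than FE pool 1, at -1.42. Of 18 exocrine pancreas and 12 skeletal muscle markers 1 each was tested, and the defining CPA1, CTRB1, PNLIP, MYH1A and MYH1B were listed at 0 in all pools, as were CDX1, CDX2, FABP2 and SI of the intestine.

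**Figure D4:**
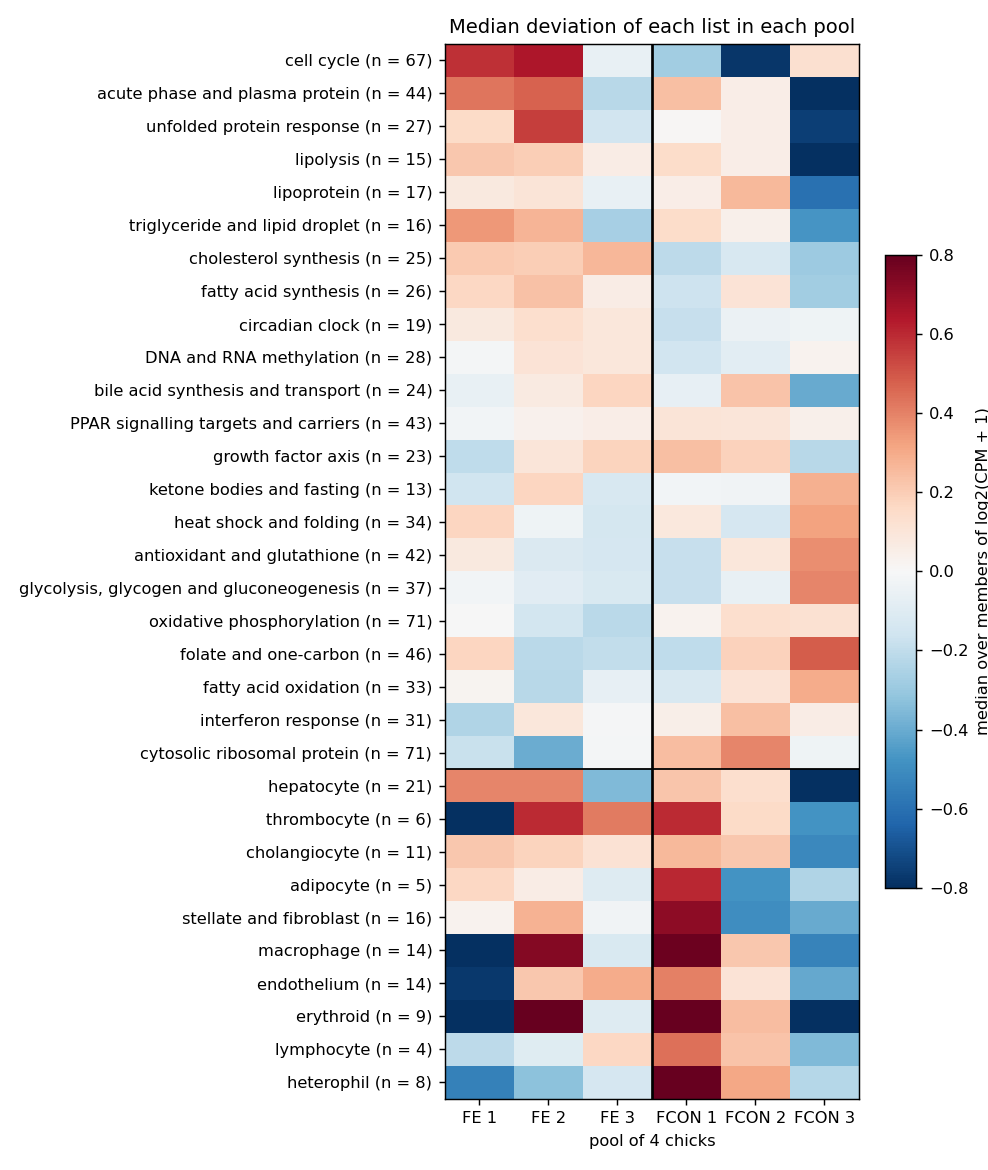
Median over the tested members of each list of log2(CPM + 1) minus the mean of the 6 pools, for FE pools on the left and FCON pools on the right; pathway lists are above the horizontal line and cell type lists below, each ordered by its median FE minus FCON difference, and colours saturate at 0.8. FCON pool 3 is low for hepatocyte, plasma protein and unfolded protein response genes and high for one-carbon and glucose genes, and FE pool 1 and FCON pool 1 are opposite for macrophage and erythroid markers.

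Several liver genes differed far more between pools of a diet than between diets. Among genes with a mean of at least 10 FPKM, AQP9, the glycerol channel of hepatocytes, had 210.3, 238 and 5.73 CPM in FE pools, against 2.66, 227 and 4.45 CPM in FCON pools, so FE pools 1 and 2 and FCON pool 2 were high and the other 3 nearly silent. SHPK, the sedoheptulose kinase, had 0.529, 22.4 and 64.6 CPM in FE pools, against 51.7, 0.346 and 0 CPM in FCON pools. SLC7A2, a cationic amino acid transporter, had 177, 2.18 and 229 CPM in FE pools, against 203, 30.3 and 118 CPM in FCON pools, and OSGIN1, an oxidative stress response gene, had 13.7, 45.2 and 281 CPM in FE pools, against 250.2, 24.4 and 35.6 CPM in FCON pools. LBP, the lipopolysaccharide-binding protein, had 3.02, 65.5 and 40.8 CPM in FE pools, against 104, 5.42 and 32.5 CPM in FCON pools. BG2, a B-G gene of the polymorphic chicken major histocompatibility complex, had 32.3, 0.0537 and 65.005 CPM in FE pools, against 41.4, 53.2 and 1.53 CPM in FCON pools. DUSP3 was listed at 0 in FCON pool 2 and had 22.4, 21.8 and 21.8 CPM in FE pools. Its log2 difference of 0.45 came to -0.12 without FCON pool 2. In all, 503 of the 9700 genes had an SD between pools above 1 on the log2 scale. The interval of the diet difference for AQP9 ran from -2.54 to 4.45.

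**Figure D5:**
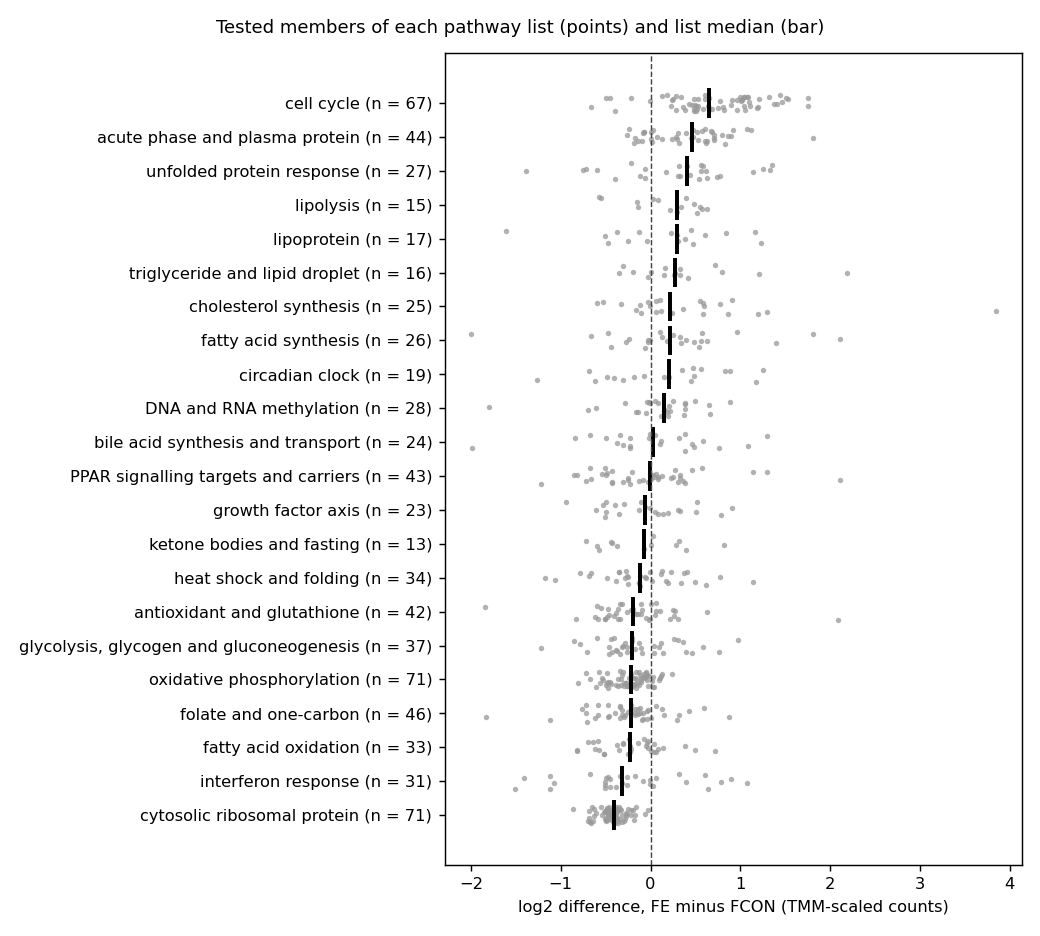
Log2 difference (FE minus FCON) of every tested member of the 22 pathway lists with tested members, each point a gene and each black bar the list median, ordered by median; the vertical scatter within a list has no meaning. Cell cycle genes lie furthest to the right (median 0.65) and ribosomal protein genes furthest to the left (median -0.40), with every ribosomal protein gene below 0.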

How the data were processed

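Per the labels' protocols, polyadenylated RNA was purified with oligo-dT, fragmented, primed with random hexamers and sequenced from both ends (Illumina NovaSeq). The kit is not said to keep the strand, so reads of a gene and of a gene overlapping it on the other strand cannot be told apart. The submitters' processing notes name cutadapt, HISAT2 and StringTie. Versions, settings and genome build: not given in the sources used here. The deposited table holds FPKM per gene and library and whole-number estimated counts, which the authors derived from their alignments. FPKM is relative to all counts of a library, rRNA genes included, so a library rich in rRNA has lower FPKM throughout.

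Genes with FPKM of at least 1 in at least 3 of the 6 libraries were tested. The deposited expected (estimated) counts were scaled by TMM and tested with edgeR 4.0.16 (quasi-likelihood, 1 mean per diet, two-sided) in R 4.3.3, with Benjamini-Hochberg adjustment over all 9700 genes and a threshold of 0.05. SE belongs to the log2 difference, and its 95% interval uses the t quantile of the same fit. The analysis was tested on simulated data. Genes in that simulation were drawn independently, without the shifts of whole pools described above, and its outcome is not reported here. Exact permutation tests used scipy 1.17.1. The pools are separate chicks, as labelled, so p measures the spread between 3 pools per diet. Alternatives were DESeq2 1.42.0, other scalings and filters, rRNA removal, limma 3.58.1 on log2(FPKM + 1) and log2(FPKM + 0.1), a replicate block, a spread shared with the 6 rooster liver libraries, and leaving out libraries. Subtracting the length trend was chosen after seeing the data.

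Gene lists (23 of pathways, 13 of cell types) are described by counts and medians without a test. Of 1188 list symbols 1032 matched the deposited name, 3 a GRCg7b reference symbol and 155 none; for mitochondrially encoded genes no protein-coding member matched, and that list is not analysed here. The members and lists were chosen with earlier results of these data known. Named genes are the 10 smallest p in each direction (with a symbol and at least 2 FPKM in a group), the 20 highest FPKM, list members with an unadjusted p below 0.05 or the smallest p, a panel of 44 genes and the 10 with the largest spread between pools at 10 FPKM or more. Coordinates come from the authors' table. A few genes that the naming rule takes are not reported here.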

Additional observations from a re-analysis of the deposited data

How the results depend on the processing

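Numbers of calls depend on the variance estimate and on single libraries. Against 0 genes, 38 were called by DESeq2, 14 when the 12 liver libraries shared the spread, 1 without a filter on low values, 1 with limma on log2(FPKM + 0.1), 2 without both pools numbered 2, and 0 to 2 when each library was left out in turn. Other scalings, the FPKM minimum of 5, removal of rRNA genes and log2(FPKM + 1) gave 0. Across genes, the deviations of FE and FCON pools with the same replicate number had correlations of -0.095, 0.027 and -0.18. Pools with different numbers were not compared in this way, so these values do not settle whether the numbers pair the pools. Both pools numbered 2 held plentiful W transcripts. With the replicate block 0 genes were called and 1548 intervals lay within 2-fold.

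Genes at an unadjusted p below 0.05 (679) numbered 1348 with the shared spread, 320 at the FPKM minimum of 5, 1324 and 1420 with limma at pseudocounts of 0.1 and 1, 1020 without a filter and 382 without both pools numbered 2, and 376 to 760 with 1 library left out, the lowest without FE pool 2. With limma on log2(FPKM + 1), 1349 of the 1420 were higher in FE. Intervals within 2-fold (2591) numbered 4157, 1590 with limma at 0.1, and 138 without both pools numbered 2, and 1136 to 2535 with 1 library left out, the lowest without FE pool 1. The median SD between pools (0.43) was 0.37 to 0.43.

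The median of cell cycle genes (0.65) was 1.18 with limma at 0.1 and 0.41 to 0.99 with 1 library left out. Cholesterol synthesis (0.22) had 0.15 at the FPKM minimum of 5, 0.74 and 0.50 with limma at 0.1 and 1, 0.31 with the replicate block and 0.31 without both pools numbered 2, and 0.15 to 0.34 with 1 library left out. Ribosomal protein (-0.40) had -0.00055 and -0.00056 with limma, -0.17 after subtraction of the length trend, and -0.54 to -0.33. Fatty acid oxidation (-0.23) had -0.13 at the FPKM minimum of 5, 0.23 and 0.23 with limma, and -0.30 to -0.043, the last without FCON pool 3. Fatty acid synthesis (0.22) had 0.090 at the FPKM minimum of 5, 0.64 and 0.52 with limma, and 0.10 to 0.42. One-carbon genes (-0.21) had -0.12 at the FPKM minimum of 5, 0.24 and 0.21 with limma, and -0.40 to -0.0078, the last without FCON pool 3. Oxidative phosphorylation (-0.21) had -0.12 at the FPKM minimum of 5, 0.23 and 0.23 with limma, -0.012 after subtraction of the length trend, and -0.31 to -0.17. The median of all genes shifts by 0.41 and 0.34 on the 2 FPKM scales. Of 200 named genes 56 changed sign in at least 1 of 17 other settings, none of them among the 99 with an unadjusted p below 0.05. The settings reuse the libraries by which those 99 were picked, so a change of sign among them was unlikely beforehand. A floor of 3 counts per library was chosen, which is 0.0537 to 0.173 CPM by depth, and lower counts occur.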

Other observations

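Some loci without a gene symbol also set the pools apart. LOC107055280 (chromosome 27, 3980939 to 3982039 in the deposited table), chosen after its values were seen, had 2929, 2301 and 187 counts in FE pools and 0 in each FCON pool. With each FCON library set to the chosen floor of 3 counts, it was at least 308-fold higher in FE on the CPM scale. It passed the expression minimum through the FE pools alone and was not called in the main fit. On the same counts it was called by DESeq2 and by the fit with a shared spread, and was the gene called without a filter on low values. Because it was picked by its values, those calls are not separate support. The most abundant liver transcripts had overlapping groups for the most part. FTH1, the ferritin heavy chain, had 12705, 14533 and 14113 CPM in FE pools, against 18063, 19860.0 and 16922 CPM in FCON pools. RPS19, a ribosomal protein, had 1617, 1004 and 1779 CPM in FE pools, against 2252, 2856 and 1798 CPM in FCON pools. NME4, a mitochondrial nucleoside diphosphate kinase, had 2467, 1663 and 2298 CPM in FE pools, against 2549, 4049.9 and 3059 CPM in FCON pools. All FE pools lay below all FCON pools in these 3 genes, as they did in 6.59% of all tested genes. AvBD9, a beta-defensin made by hepatocytes, had 4421, 2753 and 2319 CPM in FE pools, against 5463, 3762 and 2992 CPM in FCON pools. ORM1, the plasma protein orosomucoid, had 6601, 4324 and 1941 CPM in FE pools, against 6823, 3463 and 3270.1 CPM in FCON pools.

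Genes of the Z chromosome, of which females carry 1 copy and males a pair, had a median difference of 0.030 over 395 tested genes. MT3, a second metallothionein locus in the table, had 2.496, 42.4 and 15.8 CPM in FE pools, against 175, 68.6 and 8.55 CPM in FCON pools, and so resembled MT4L in being lowest in FE pool 1 and highest in FCON pool 1. LBP and AKR1D1 shared those end points. GIF, the gastric intrinsic factor that carries cobalamin, had 16.7, 10.2 and 26.3 CPM in FE pools, against 50.7, 10.3 and 0.445 CPM in FCON pools.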
